A study of Mus musculus with 52 samples.

Results

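The genes described here are Ramp3, which encodes an accessory subunit of G protein-coupled receptors, and the 4 receptor genes Gpr132, Gpr171, Gpr183 and S1pr2, followed in mouse dendritic cells exposed to prostaglandin E2 (PGE2). They are 5 of the 23136 lines of the count table, taken by symbol and read in all 13 groups. They were chosen by measured values, because Ramp3, Gpr132, Gpr171 and S1pr2 had depended on the PGE2 receptor EP2, on PGE2 or on poly I:C in these same data. Their levels in the untreated, PGE2, EP2 antagonist and poly I:C groups are therefore given as a description, with no test. Tests of the 5 genes are given for 4 comparisons between other libraries, while related genes were tested in every comparison. The results of the whole series were known when all of these genes were picked. The antagonist groups also had PGE2, and the combined group is titled with EP2. Comparisons between them are thus close to what chose the genes and give no independent support. The CM results were known as well when the genes were picked, so that comparison gives no independent support either.

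The cells were type 1 conventional dendritic cells (cDC1), a subset known for priming CD8 T cells by cross-presentation. C57BL/6 bone marrow was cultured with GM-CSF and FLT3 ligand, CD103+ cells were sorted, and the 3' ends of their polyadenylated RNA were counted in bulk with unique molecular identifiers. Each of the 13 groups had 4 libraries, A to D. At 4 h there were cells given PGE2 (100 ng/ml) after 30 min with an antagonist (5 uM) of EP1 (SC-19220), EP2 (PF-04418948), EP3 (L-826,266), EP4 or EP2 plus EP4, cells given PGE2 alone, cells in medium conditioned (CM) by control BRAFV600E melanoma cells, cells in CM of Ptgs1/Ptgs2-/- BRAFV600E melanoma cells, here Ptgs-deficient CM, and untreated cells. At 24 h there were cells with PGE2 and poly I:C (10 ug/ml) for the last 4 h, with poly I:C alone, with PGE2 alone, and untreated cells. Poly I:C is a synthetic double-stranded RNA sensed by TLR3. The titles name the combined group EP2 plus EP4, while its treatment label lists SC-19220, the EP1 compound, beside the EP4 compound, so which compound was added to the EP4 antagonist cannot be told from the labels. The Ptgs genes were deleted in the melanoma cells, whose RNA was not measured. The libraries of a group carry a label as biological replicates with no word on separate animals or cultures, so p-values measure the spread between these libraries, which may be technical.

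PGE2 signals through EP1 to EP4. EP2 and EP4 couple to Gs and raise cyclic AMP, EP3 mostly lowers it and EP1 acts mainly on calcium. RAMP proteins are single-pass membrane proteins that travel to the cell surface with receptors of the calcitonin family and set which peptide these recognise. RAMP3 with the product of Calcrl forms a receptor for adrenomedullin. GPR132 responds to lysolipids and oxidised fatty acids. GPR171 is a receptor related to the P2Y family for which a neuropeptide cleaved from proSAAS has been described as a ligand. GPR183, or EBI2, guides B cells and dendritic cells along oxysterols that the enzyme CH25H helps to make. S1PR2 binds sphingosine 1-phosphate and, unlike S1PR1, mostly holds cells back from migrating towards it.

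On GRCm38 (GENCODE M21) Ramp3 (ENSMUSG00000041046.7) lies on the plus strand at chr11:6658521-6677475, with at most 4 exons in a transcript. The other genes lie on the minus strand, Gpr132 (ENSMUSG00000021298.8) at chr12:112850873-112868228, Gpr171 (ENSMUSG00000050075.8) at chr3:59096448-59101821, Gpr183 (ENSMUSG00000051212.8) at chr14:121952551-121965195 and S1pr2 (ENSMUSG00000043895.6) at chr9:20962361-20976781. Gpr171 sits inside Med12l and Gpr183 inside Ubac2, each on the opposite strand, and Ramp3 overlaps the pseudogene Gm11978. No source used here says whether counting used the strand, and without it reads of such partners cannot be told apart. Med12l held 0 to 12 counts in a group and Gm11978 0 to 2, while Ubac2 held 24 to 70 counts and stayed between 29.1 and 53.7 CPM, that is, counts scaled to a common library total.

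Promoters are shown for Ramp3 and Gpr132, whose levels ran most alike among the 5 genes, and for S1pr2, whose levels ran opposite to those of Gpr132. Each is the 250 bases before the RefSeq start site on GRCm38.p6, 5′ to 3′ on the strand of the gene. RefSeq promoter entries matched 4 of the 5 genes, all except Gpr171. Capitals mark matches on either strand to the cyclic AMP response element (CRE) TGACGTCA, its half-site TGACG, the AP-1 site TGANTCA, the core of the interferon-stimulated response element and the NF-kB consensus.
Ramp3, chr11:6658283-6658532, plus strand: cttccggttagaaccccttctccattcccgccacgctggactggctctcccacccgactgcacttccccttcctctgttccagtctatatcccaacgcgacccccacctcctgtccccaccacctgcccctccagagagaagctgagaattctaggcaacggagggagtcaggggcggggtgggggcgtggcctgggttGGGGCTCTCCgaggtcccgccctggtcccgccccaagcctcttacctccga
Gpr132, chr12:112860917-112861166, minus strand: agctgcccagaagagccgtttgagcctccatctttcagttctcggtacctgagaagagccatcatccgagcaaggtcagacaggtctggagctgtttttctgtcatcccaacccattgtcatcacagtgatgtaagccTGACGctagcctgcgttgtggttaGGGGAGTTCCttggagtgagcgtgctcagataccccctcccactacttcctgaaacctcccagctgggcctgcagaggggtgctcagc
S1pr2, chr9:20976794-20977043, minus strand: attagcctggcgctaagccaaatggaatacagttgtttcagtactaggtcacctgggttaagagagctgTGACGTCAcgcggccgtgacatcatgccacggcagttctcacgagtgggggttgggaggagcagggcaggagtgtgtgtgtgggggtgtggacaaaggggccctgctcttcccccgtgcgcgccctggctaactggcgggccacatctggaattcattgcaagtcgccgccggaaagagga
The capitals in Ramp3 are an NF-kB consensus match 51 to 42 bases before the start site. Gpr132 has a half-site 112 to 108 bases and an NF-kB match 88 to 79 bases before it. S1pr2 has a full CRE 181 to 174 bases before it, which also holds the half-site on each strand. The Gpr132 window lies within the GENCODE span of that gene. GENCODE thus also places a start further upstream, and the bases before that start are not shown. Of 32851 promoters of that length, 1.55% held the CRE, 17.8% the half-site, 6.75% the AP-1 site, 2.98% the interferon core and 7.25% the NF-kB consensus. The Gpr183 window held none of these letters, which says nothing about the factors that bind there.

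Library totals ran between 42666 and 438491 counts, with a median of 295484.5. EP4 antagonist library A (42666) and untreated library A at 4 h (54107) were the shallowest. Levels are CPM with TMM scaling over all libraries, with the SD over 4 libraries. A count of 0 allows up to 3 counts, which is 6.11 CPM at the least, in combined antagonist library A, and 60.9 CPM at the most, in EP4 antagonist library A, and this covers counting error only. All 12 cDC1 markers were present, and their summed level was 4276 to 4914 CPM with PGE2 and 7497 to 8105 CPM in untreated cells at 4 h. Of 11 tested, 8 were called lower and none higher with PGE2 at 4 h, beside 8.57% of all genes called. In control over Ptgs-deficient CM 5 were lower and none higher, beside 3.95%. With the combined antagonists 4 were higher than with the EP4 antagonist, beside 5.47%. Against the EP1 and EP3 mean 6 were higher, beside 602 of 5754 genes called. Flt3 alone was lower in both. Markers of cDC2 summed to at most 174 CPM in any library, with Mgl2 and Clec10a at 0 in most groups. Macrophage and monocyte markers summed to 1492 CPM with the combined antagonists, 1076 CPM with PGE2 and 1218 CPM in untreated cells at 4 h, in the last with 807 CPM of Lyz2 and with Mertk at 0. At 24 h, where 65% of 5273 genes were called for poly I:C over untreated, the markers shifted too. The cDC1 markers summed to 4350 to 5196 CPM with poly I:C and 7179 to 7555 CPM in untreated cells, and 8 of 11 tested were called lower and none higher. Macrophage and monocyte markers summed to 506 to 682 CPM with poly I:C and 1185 to 1615 CPM in untreated cells, with 3 of 4 tested called lower (Lyz2, Csf1r and Ccr2). Markers of cDC2 summed to 11.1 to 28.1 CPM and 69.3 to 104 CPM in the same groups, and the only tested one, Cd209a, was called lower (-3.58). The plasmacytoid list summed to 618 to 811 CPM with poly I:C and 113 to 172 CPM in untreated cells. Its 2 tested genes, the interferon-induced gene Bst2 and Tcf4, were called higher. The 3 granulocyte markers in the table summed to at most 14.0 CPM in a library, and the 7 lymphocyte markers to at most 25.1 CPM. The part of these shifts in the results was not tested, and in bulk RNA fewer cells of a type cannot be told apart from less RNA per cell.

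One library of the Ptgs-deficient CM stood apart. Its library B had 206 CPM of Ramp3 (68 counts) and 425 CPM of Gpr171, while A, C and D had 13.2 to 24.0 and 159 to 201 CPM. The cDC1 markers of library B summed to 6247 CPM, below 7631 to 8674 CPM in A, C and D, and nearest to the 5268 to 5858 CPM of control CM. Its macrophage and monocyte markers summed to 1283 CPM, within the 1150 to 1450 CPM of A, C and D. Its cDC2 (51.6 CPM) and plasmacytoid (88.0 CPM) sums also lay within the range of those libraries. What set library B apart was not tested. Fold changes against this group are given with and without library B. It was singled out by its own levels of Ramp3 and Gpr171, so values without it are descriptions and no independent tests.

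Group means of Ramp3 lay between 19.4 and 2219 CPM. At 4 h they were high under PGE2 alone, after the EP1, EP3 or EP4 antagonist, and in control CM. At 24 h they were high with poly I:C, and highest with PGE2 and poly I:C. With PGE2 at 4 h libraries A to D had 395, 375, 377 and 335 CPM, against 76.5, 30.3, 20.1 and 10.6 CPM in untreated cells. The ranges were far apart, and the untreated value of 76.5 CPM came from 5 counts in a shallow library. The log2 fold change was 3.96 ± 0.69 (SE). With the EP2 antagonist before PGE2 the libraries had 68.5, 65.1, 75.6 and 87.2 CPM, all below those of PGE2 alone, at -2.31 ± 0.43. The antagonists of EP1, EP3 and EP4 left means of 336 ± 60.3, 335 ± 119 and 289 ± 18.7 CPM, against 370 ± 25.2 CPM with PGE2 alone (SD, n = 4 each). The EP1 and EP3 antagonist libraries overlapped those of PGE2 alone, while the EP4 antagonist libraries, at 264 to 309 CPM, all lay below its 335 to 395 CPM (-0.33 ± 0.37).

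Under the combined antagonists, whose compounds the labels give in conflicting ways, Ramp3 overlapped the range of untreated cells. Libraries A to D had 10.2, 23.1, 18.9 and 29.5 CPM, against 264, 289, 295 and 309 CPM with the EP4 antagonist alone. No library of one group came near the other. Ramp3 fell by 3.85 on the log2 scale (SE 0.63, adjusted p = 8.79e-06 by edgeR's quasi-likelihood test over all genes). Set against the mean of the EP1 and EP3 antagonist groups the log2 fold change was -4.05 ± 0.59 (adjusted p = 1.56e-07). The EP4 antagonist alone differed from that mean by -0.20 (95% interval -0.83 to 0.44, adjusted p = 0.994).

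Tumour medium gave a similar split. Ramp3 had 242, 344, 334 and 246 CPM in control CM, against 14.2, 206, 24.0 and 13.2 CPM in Ptgs-deficient CM. Every control CM library was above library B, the highest of the other group. The log2 fold change was 2.11 ± 0.46 (adjusted p = 0.00248). Without library B, which its own Ramp3 level had set apart, it was 4.10, given as a description. With only these 8 libraries in the fit Ramp3 stayed at 2.12 but missed the threshold (adjusted p = 0.250). Against untreated cells, Ptgs-deficient CM stood at 1.50 ± 0.75 with library B and at -0.49 without it.

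**Figure D1:**
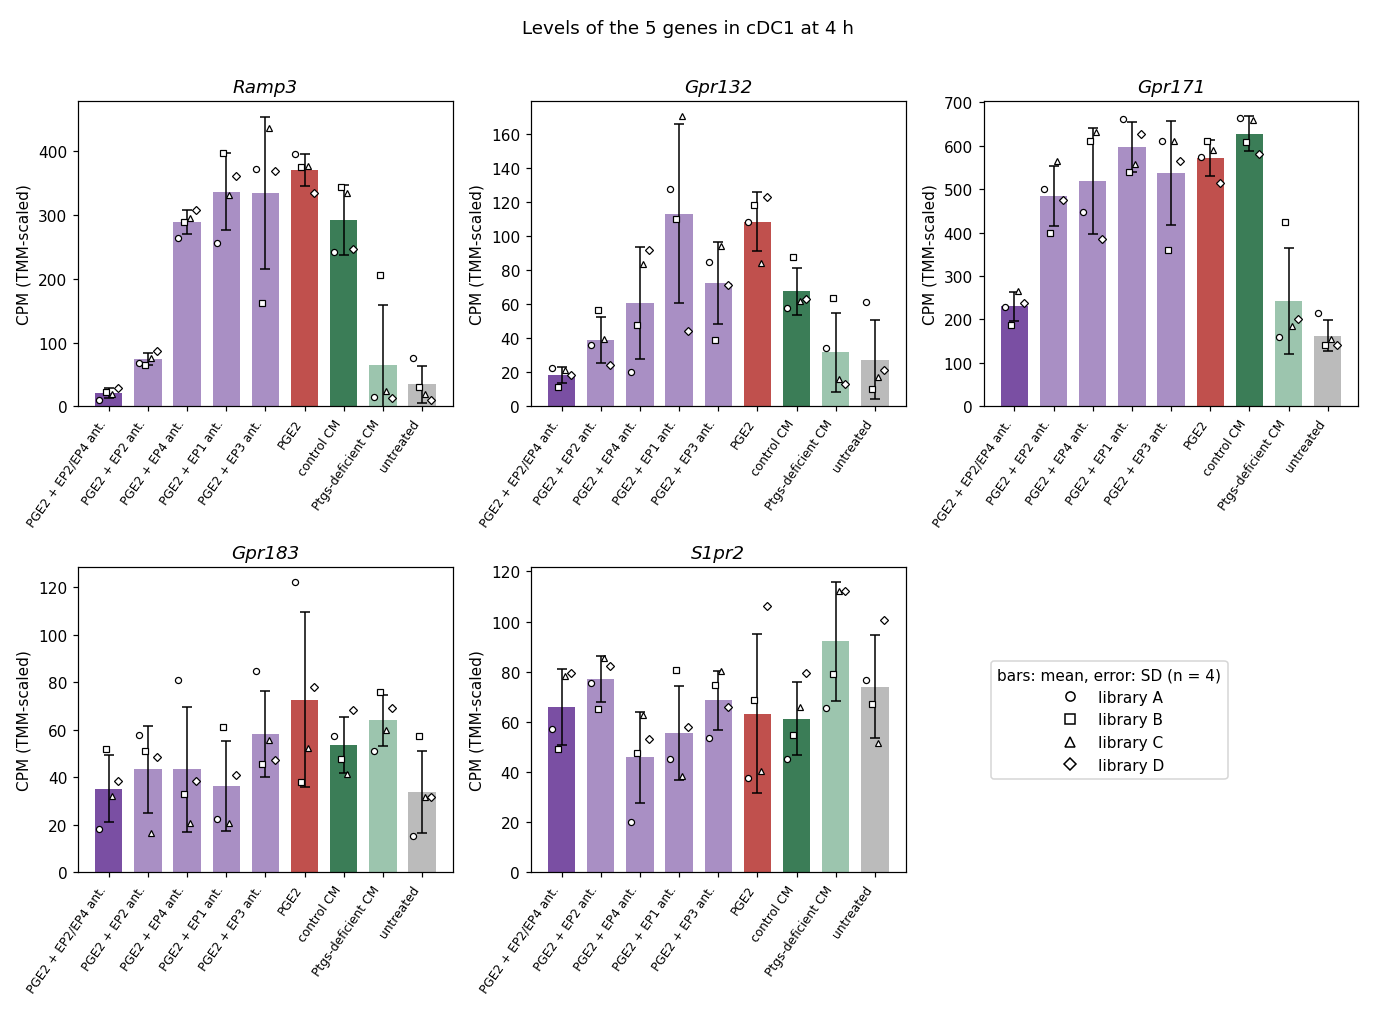
Levels of the 5 genes at 4 h in CPM (y axis, from 0) by group (x axis); bars are means, error bars the SD (n = 4, cut at 0), and symbols the libraries A to D. Ramp3, Gpr132 and Gpr171 are lowest with the combined antagonists, in Ptgs-deficient CM and in untreated cells, and library B of the Ptgs-deficient CM stands at 206 CPM of Ramp3.

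At 24 h Ramp3 had its highest levels. Cells with both PGE2 and poly I:C had 2494, 2124, 2106 and 2150 CPM, cells with poly I:C alone had 512, 455, 501 and 533 CPM, cells with PGE2 alone had 81.6, 109, 108 and 86.9 CPM, and untreated cells had 29.6, 5.64, 22.5 and 19.8 CPM. None of the 4 groups overlapped another. For poly I:C over untreated 65% of all genes were called. The share of all genes that lay apart in this way at 24 h was not counted, here or for the genes below. The log2 fold change was 4.56 ± 0.29 for poly I:C over untreated, 2.31 ± 0.31 for PGE2 over untreated and 2.15 ± 0.12 for both over poly I:C alone. The effect of PGE2 with poly I:C minus that without it was -0.16 ± 0.33. For PGE2 over untreated, the log2 fold change at 24 h minus that at 4 h was -1.66 ± 0.48.

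The 24 h fold changes with poly I:C depend on the scaling. With library totals in place of TMM the median of all genes shifted by -0.77 on the log2 scale, both for poly I:C over untreated and for both treatments over PGE2. Ramp3 was then at 3.79 and Gpr132 at 2.96 for poly I:C over untreated, and at 3.62 and 1.77 for both over PGE2. For both treatments over poly I:C, and for PGE2 over untreated at 24 h, that shift was -0.02, and for PGE2 over untreated at 4 h it was -0.13.

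With TMM scaling Ramp3 ran across the 13 groups as PGE2 with poly I:C highest and poly I:C next, each clear of its neighbour. PGE2, the EP1, EP3 and EP4 antagonist groups and control CM followed, between 289 and 370 CPM, with neighbours that overlapped. PGE2 at 24 h, the EP2 antagonist, Ptgs-deficient CM, the untreated groups and the combined antagonists lay between 19.4 and 96.4 CPM, again overlapping their neighbours. With library totals poly I:C alone had 289 to 334 CPM of Ramp3, below the 344 to 405 CPM of PGE2 at 4 h. Its second place thus depends on the scaling. The genes with the most similar group means of log2 CPM (prior count 2) among 4895 compared were the small GTPase gene Arl4c (Pearson r = 0.967), the cyclic AMP phosphodiesterase gene Pde4b (r = 0.966) and the sorting nexin gene Snx20 (r = 0.960). These correlations are descriptions over 13 group means that share one scaling.

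What Ramp3 would pair with was scarce. Calcrl held 0 to 12 counts in a group and Adm, which encodes adrenomedullin, 0 to 6, with its counts almost all in the groups with poly I:C. Calcr is not analysed here. Ramp2 held 0 to 8 counts in a group. Ramp1, whose product pairs with the same receptor for the peptide CGRP, went the other way in the PGE2 and combined antagonist comparisons. It averaged 7.55 ± 6.95 CPM with PGE2 and 40.9 ± 19.0 CPM in untreated cells at 4 h, a log2 fold change of -2.63 ± 0.69 (adjusted p = 0.000372). With the combined antagonists it averaged 34.0 ± 6.22 CPM, against 15.4 and 6.95 CPM under the EP3 and EP1 antagonists (1.70 ± 0.47, adjusted p = 0.00242) and 6.93 ± 5.94 CPM under the EP4 antagonist (2.01 ± 0.68, adjusted p = 0.0236). The last call was lost without EP4 antagonist library B (adjusted p = 0.0912) or C (0.152), or combined library C (0.0514) or D (0.0680). Ramp1 had a mean of 8.10 CPM in control CM, against 21.2 CPM in Ptgs-deficient CM, and was not called (-1.27 ± 0.64, adjusted p = 0.309, and -1.46 without library B of the Ptgs-deficient CM, adjusted p = 0.203). Of the RAMP and calcitonin list, 9 of 13 further genes were in the table and 2 were tested at 4 h.

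Gpr132 ran much like Ramp3 across the 13 group means (r = 0.924), and like it was higher under PGE2 and with poly I:C. With PGE2 at 4 h libraries A to D had 108, 118, 84.1 and 123 CPM, against 61.2, 10.1, 17.2 and 21.2 CPM in untreated cells. The groups did not overlap, and 61.2 CPM came from 4 counts in the shallow untreated library A. The log2 fold change was 2.41 ± 0.42. With the EP2 antagonist Gpr132 had 36.03, 56.6, 39.4 and 24.2 CPM, all below PGE2 alone (-1.45 ± 0.32). Against PGE2 alone the EP1, EP3 and EP4 antagonists stood at 0.07 ± 0.28, -0.56 ± 0.29 and -0.61 ± 0.32, each with libraries that overlapped.

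The combined antagonists gave the lowest mean of Gpr132. Libraries A to D had 22.4, 11.6, 21.5 and 18.1 CPM, against 20.3, 47.6, 83.4 and 91.6 CPM with the EP4 antagonist. The only overlap was EP4 antagonist library A, where 20.3 CPM was a single count. Gpr132 fell by 1.87 (SE 0.40, adjusted p = 0.000195), and against the mean of the EP1 and EP3 antagonist groups (113 ± 52.5 and 72.2 ± 24.2 CPM) by 2.23 (SE 0.34, adjusted p = 4.72e-09). The EP4 antagonist alone differed from that mean by -0.36 (95% interval -0.92 to 0.20, adjusted p = 0.994). In control CM Gpr132 had 57.4, 87.9, 61.8 and 62.9 CPM, against 34.2, 63.7, 16.02 and 13.2 CPM in Ptgs-deficient CM. Library B of the Ptgs-deficient CM overlapped control CM, and the difference of 1.03 ± 0.36 was not called (adjusted p = 0.0750). Without library B, which its Ramp3 and Gpr171 levels had set apart, it was 1.61 (adjusted p = 0.00296), which is no independent call.

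At 24 h Gpr132 tracked poly I:C more than PGE2. Cells with both had 358, 326, 420 and 402 CPM, cells with poly I:C alone 420, 249, 332 and 323 CPM, cells with PGE2 alone 70.4, 55.8, 61.9 and 43.5 CPM, and untreated cells 26.9, 33.9, 8.44 and 23.1 CPM. The 2 poly I:C groups overlapped each other and lay far above the other 2, which did not overlap. The log2 fold change was 3.72 ± 0.30 for poly I:C over untreated, 1.36 ± 0.33 for PGE2 over untreated and 0.19 ± 0.17 for both over poly I:C. The genes most like it were the Polycomb gene Phc2 (r = 0.982), the ribosomal protein-like gene Rps27l (r = 0.977) and N4bp2l1 (r = 0.975).

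**Figure D2:**
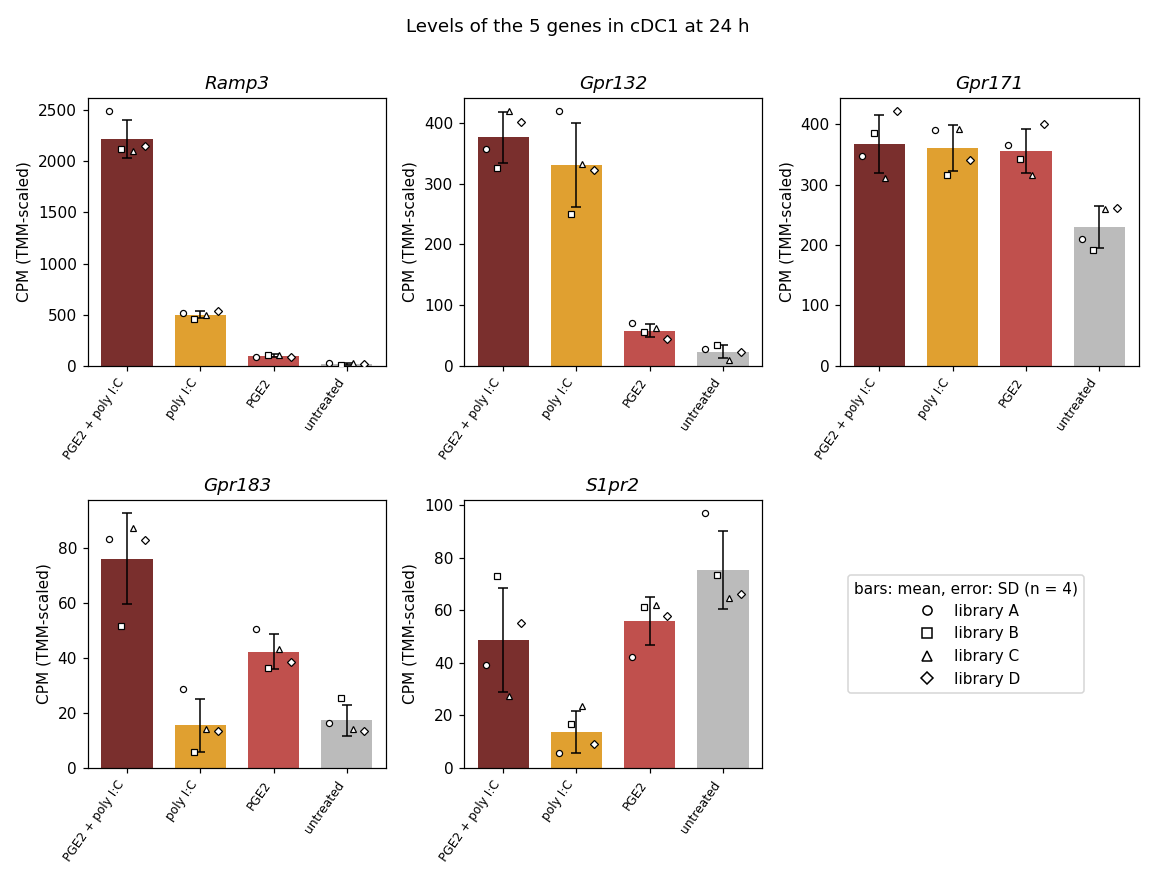
Levels of the 5 genes at 24 h in CPM (y axis, from 0) by group (x axis); bars are means, error bars the SD (n = 4), and symbols the libraries A to D. Ramp3 averages 2219 CPM with PGE2 and poly I:C, Gpr132 is high in both poly I:C groups, and S1pr2 is lowest with poly I:C alone, at 13.7 CPM.

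Among other receptors for protons and lysolipids, Gpr65 was too low to test, at 29.2 and 22.8 CPM in the groups with both and with poly I:C alone, against 1.66 to 13.1 CPM elsewhere. P2ry10, a receptor for lysophosphatidylserine, rose with PGE2, to 105 CPM against 43.4 CPM in untreated cells (1.26 ± 0.30, adjusted p = 0.000548). It fell with the combined antagonists, to 58.4 CPM against 121 CPM under the EP4 antagonist (-1.02 ± 0.26, adjusted p = 0.00412). Of the 3 tested further genes of the list, P2ry10 was the only one called in each of these comparisons, where the share called over all genes was 8.57% and 5.47%. In control CM it stood at 107 CPM, against 58.1 CPM in Ptgs-deficient CM (0.86 ± 0.26, adjusted p = 0.0288), a call lost with library totals (adjusted p = 0.0565), without the filter (0.122), with DESeq2 (0.0507) and without any of 5 libraries (0.0606 to 0.281). Without library B of the Ptgs-deficient CM it was 1.23 (adjusted p = 0.00161).

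Gpr171 was higher with PGE2 at 4 h too, but stayed high under the EP2 antagonist. With PGE2 libraries A to D had 574, 611, 589 and 514 CPM, against 214, 141, 155 and 140 CPM in untreated cells, with no overlap (1.91 ± 0.21). With the EP2 antagonist it had 501, 399, 565 and 475 CPM, which overlapped PGE2 alone (-0.25 ± 0.17). For Ramp3 the same comparison stood at -2.31 and for Gpr132 at -1.45, and the difference between the genes was not tested. Under the EP1, EP3 and EP4 antagonists Gpr171 averaged 596 ± 57.4, 537 ± 120 and 519 ± 121 CPM.

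Gpr171 was low in every library with the combined antagonists. It had 228, 188, 267 and 238 CPM, against 446, 611, 631 and 386 CPM with the EP4 antagonist, and fell by 1.23 (SE 0.19, adjusted p = 4.34e-06). Against the mean of the EP1 and EP3 antagonist groups the log2 fold change was -1.29 ± 0.16 (adjusted p = 1.34e-08). Its mean was above that of untreated cells, with a log2 fold change of 0.60 ± 0.22 and ranges that overlapped. The EP4 antagonist alone was at -0.06 (95% interval -0.36 to 0.25, adjusted p = 0.994).

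In tumour medium Gpr171 had 665, 608, 659 and 580 CPM in control CM, against 159, 425, 184 and 201 CPM in Ptgs-deficient CM. The groups were apart even with library B in place. Gpr171 rose by 1.36 ± 0.18 (adjusted p = 4.13e-07), and by 1.80 without library B, given as a description. Its level in control CM, 628 ± 41.0 CPM, was its highest of the 13 groups and overlapped that with PGE2.

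At 24 h Gpr171 differed little between the treatments. The means were 367 ± 48.0 CPM with both, 360 ± 38.3 CPM with poly I:C, 356 ± 36.2 CPM with PGE2 and 230 ± 34.7 CPM in untreated cells. The 3 treated groups overlapped one another and lay above the untreated range of 192 to 261 CPM. For poly I:C over untreated the log2 fold change was 0.56 ± 0.15 with TMM and -0.21 with library totals, so its direction depends on the scaling. PGE2 over untreated stood at 0.65 ± 0.14 with TMM and 0.62 with library totals, against 1.91 at 4 h. The genes most like Gpr171 were the cyclic AMP-induced regulator gene Crem (r = 0.965), the glycerol phosphate dehydrogenase gene Gpd2 (r = 0.940) and Csf2rb (r = 0.939), which encodes the common chain of the GM-CSF receptor.

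The P2Y-like receptor gene P2ry14, a neighbour of Gpr171 on chromosome 3 that responds to UDP-sugars, moved in the same direction. It averaged 126 ± 55.7 CPM with PGE2 and 73.5 ± 17.2 CPM in untreated cells (0.92 ± 0.26, adjusted p = 0.00655). With the combined antagonists it stood at 90.3 ± 14.8 CPM, against 182 ± 60.5 CPM under the EP4 antagonist (-0.87 ± 0.23, adjusted p = 0.00633). The first call was lost without untreated library B (adjusted p = 0.0654) or PGE2 library C (0.199), and the second without EP4 antagonist library B (0.0636). In control against Ptgs-deficient CM it was at 0.67 ± 0.23 and was not called (adjusted p = 0.0763), nor without library B of the Ptgs-deficient CM (0.70, adjusted p = 0.0877). P2ry14 was the only tested one of 8 further genes of its list at 4 h. Pcsk1n, which encodes proSAAS, had no count in any group.

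Gpr183 varied widely between libraries at 4 h and was higher with PGE2 at 24 h. At 4 h it averaged 72.7 ± 37.0 CPM with PGE2, in libraries that ran between 38.2 and 122 CPM, and 34.0 ± 17.3 CPM in untreated cells, which ran between 15.3 and 57.2 CPM. The ranges overlapped (0.88 ± 0.36). Against PGE2 alone the EP1, EP2, EP3 and EP4 antagonists stood at -0.85 ± 0.36, -0.67 ± 0.33, -0.26 ± 0.32 and -1.05 ± 0.39. The combined antagonists stood at -1.01 ± 0.33. These groups all overlapped PGE2 alone, and the values are descriptions. Gpr183 was not called in any of the 4 tested comparisons. Control CM had 53.6 ± 11.9 CPM and Ptgs-deficient CM 64.1 ± 10.7 CPM (-0.23, 95% interval -0.86 to 0.40, adjusted p = 0.853). The combined antagonists were at 35.3 ± 14.0 CPM and the EP4 antagonist at 43.4 ± 26.3 CPM (0.04, 95% interval -0.75 to 0.82, adjusted p = 0.981), where the fit and the means differ in sign. Against the mean of the EP1 and EP3 antagonists the combined group was at -0.46 (-1.05 to 0.13, adjusted p = 0.387) and the EP4 antagonist at -0.50 (-1.21 to 0.22, adjusted p = 0.994). For CM, leaving out single libraries gave -0.38 to -0.12, and without library B of the Ptgs-deficient CM it was -0.13 (adjusted p = 0.934).

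At 24 h PGE2 set Gpr183 apart in both backgrounds. With both treatments it had 83.3, 51.5, 87.3 and 82.8 CPM, against 28.8, 5.54, 14.0 and 13.4 CPM with poly I:C alone (2.29 ± 0.51). With PGE2 alone it had 50.7, 36.2, 43.3 and 38.6 CPM, against 16.2, 25.4, 14.1 and 13.2 CPM in untreated cells (1.30 ± 0.42). Neither pair overlapped. The poly I:C group rested on 12 counts in all. For both over PGE2 the log2 fold change was 0.72 ± 0.34 with TMM and -0.05 with library totals. The most similar genes, Cmip (r = 0.852), Fam107b (r = 0.851) and Rbm26 (r = 0.797), were less alike than those of the other members.

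A gene for making its ligand was lower where Gpr183 was higher among the poly I:C groups, where 10.7% of all genes were called for both over poly I:C. Ch25h, which encodes cholesterol 25-hydroxylase, stood at 251 ± 57.8 CPM with both treatments and 626 ± 65.0 CPM with poly I:C, so that it fell with PGE2 in the presence of poly I:C (-1.32 ± 0.17, adjusted p = 2.91e-11). It rose to that level with poly I:C, against 3.76 ± 4.41 CPM and 5 counts in all in untreated cells (7.18 ± 0.68, adjusted p = 4.28e-55). In that comparison 65% of all genes were called. At 4 h Ch25h held 2 to 9 counts in a group. Cyp27a1 held 12 to 38 counts in a group, and Cyp7b1 and Hsd3b7 are not analysed here.

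S1pr2 was low with poly I:C and was not called in any of the 4 tested comparisons at 4 h. Over the 9 groups at 4 h its means lay between 45.9 and 92.1 CPM and each overlapped its neighbour in the order. PGE2 libraries had 37.6 to 106 CPM and untreated ones 51.7 to 101 CPM (-0.30 ± 0.30). In the tested comparisons it stood at -0.53 for control over Ptgs-deficient CM (95% interval -1.07 to 0.00237, adjusted p = 0.368), at 0.32 for the combined over the EP4 antagonist (-0.28 to 0.93, adjusted p = 0.673) and at 0.09 for the combined over the mean of EP1 and EP3 antagonists (-0.37 to 0.54, adjusted p = 0.891). The EP4 antagonist over that mean was at -0.24 (-0.81 to 0.33, adjusted p = 0.994). For CM, leaving out single libraries gave -0.70 to -0.42, and without library B of the Ptgs-deficient CM it was -0.59 (adjusted p = 0.319).

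At 24 h S1pr2 had 39.2, 72.9, 27.3 and 55.2 CPM with both treatments, 5.75, 16.6, 23.4 and 8.96 CPM with poly I:C alone, 42.2, 61.3, 61.9 and 57.9 CPM with PGE2 alone, and 97.0, 73.4, 64.7 and 66.0 CPM in untreated cells. All poly I:C libraries lay below all others, and they held 11 counts together. The share of all genes that lay apart in this way was not counted. For poly I:C over untreated the log2 fold change was -2.49 ± 0.50 with TMM and -3.25 with library totals. PGE2 over untreated was -0.42 ± 0.29, with every PGE2 library just below every untreated one, while both over poly I:C was 1.81 ± 0.53. The difference of these effects of PGE2 was 2.23 ± 0.60. For both over PGE2 it was -0.26 ± 0.33, and -1.03 with library totals.

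S1pr4, the other receptor of its family with counts in every group, was also low with poly I:C. It averaged 11.4 ± 5.82 CPM with poly I:C and 146 ± 15.9 CPM in untreated cells, a fall of 3.72 (SE 0.52, adjusted p = 3.38e-18). In that comparison 65% of all genes were called. With both treatments S1pr4 averaged 25.8 ± 12.3 CPM (1.18 ± 0.59 over poly I:C, adjusted p = 0.181). For PGE2 over untreated at 4 h it was not called (-0.13 ± 0.22, adjusted p = 0.827). S1pr1 had no count and S1pr3 a single one. Of 4 tested further genes of the sphingosine list, the lyase gene Sgpl1 rose in control over Ptgs-deficient CM (0.95 ± 0.30, adjusted p = 0.0394), a call lost with library totals (0.0679), without the filter (0.152), with DESeq2 (0.0774) and without any of 4 libraries (0.168 to 0.331), beside 3.95% of all genes called. Without library B of the Ptgs-deficient CM it was 1.00 (adjusted p = 0.0439). None of the 4 was called for the combined antagonists. The genes most like S1pr2 were Mier2 (r = 0.957), Tbrg4 (r = 0.951) and the mannosidase gene Man1a2 (r = 0.928).

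**Figure D3:**
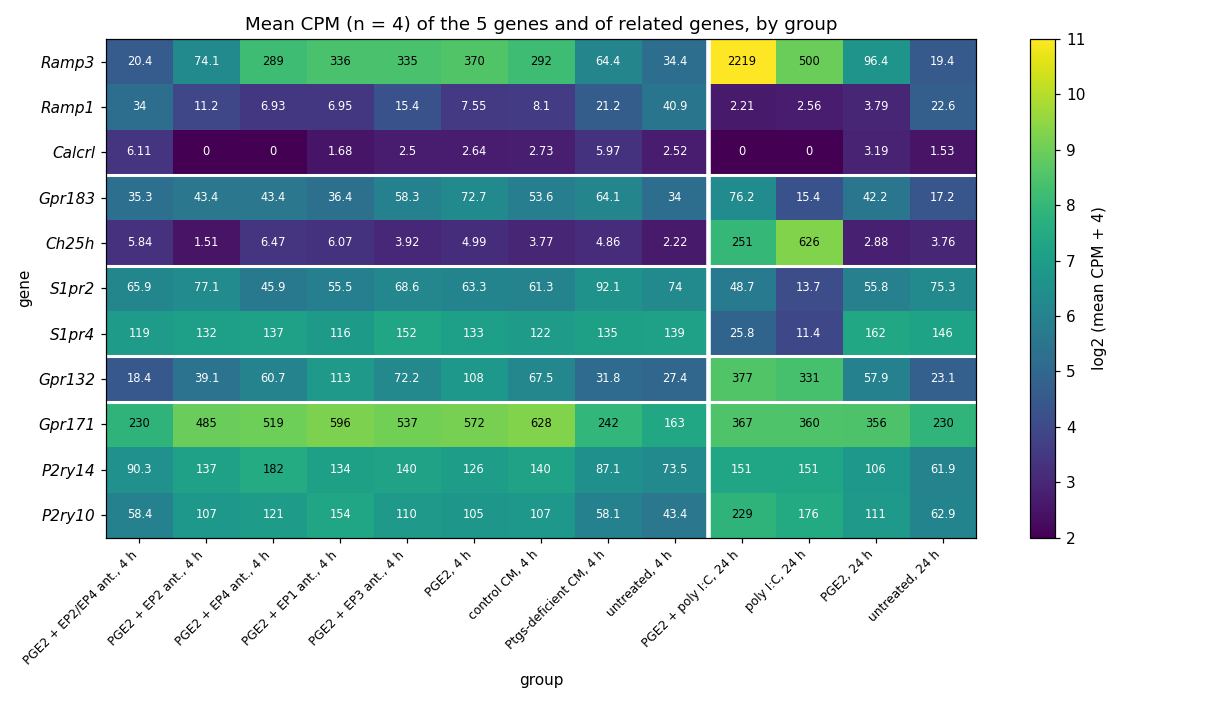
Mean CPM (n = 4, printed in each cell, coloured as log2 of the mean plus 4) of the 5 genes and of genes for their partners, ligand enzymes and relatives (rows) in the 13 groups (columns). At 4 h Ramp1 is highest in untreated cells and with the combined antagonists, Ch25h exceeds 6.47 CPM in the 2 poly I:C groups alone, and S1pr4 and S1pr2 are both lowest with poly I:C alone.

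In the tested comparisons 2 of the 5 genes were called higher in control than in Ptgs-deficient CM, where 3.95% of 5754 genes were called and 2.43% were called higher. The same 2 had no overlap between the groups, as did 4.38% of all genes in that direction. With the combined antagonists 3 were called lower than with the EP4 antagonist, beside 3.42% of all genes, and 2 of them, Ramp3 and Gpr171, had no overlap, beside 4.28%. The same 3 were called lower than the mean of the EP1 and EP3 antagonists, beside 5.46% of all genes, and none of the 3 overlapped, beside 2.76%. The last 2 comparisons share the combined libraries, and both are close to the dependence on EP2 and PGE2 that chose the genes. The CM results were also known when the genes were picked, so none of these counts is independent support. For the EP4 antagonist over that mean none of the 5 and none of the 5754 genes was called by edgeR or DESeq2 (0%). An unadjusted p under 0.05 was held by 285 genes, and a share of 0.05 of all genes is what chance alone gives at that cut. In the comparisons that chose the genes, 8.57% of all genes were called for PGE2 over untreated at 4 h and 0.417% for the EP2 antagonist over PGE2. No call of the 5 genes is read from these.

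**Figure D4:**
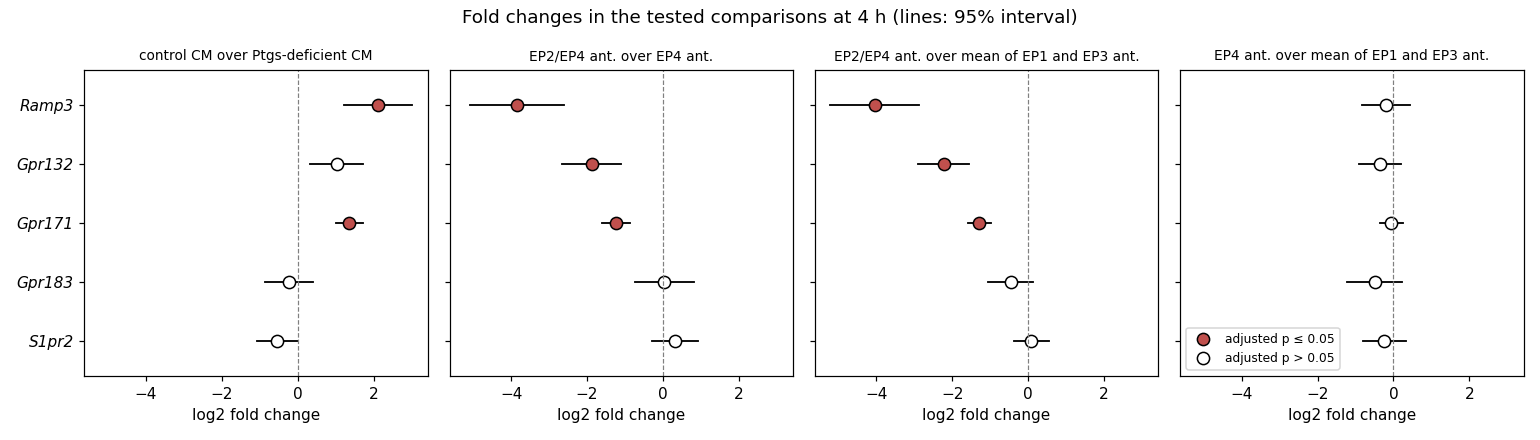
Log2 fold change (x axis) of the 5 genes (rows) in the 4 tested comparisons at 4 h, with 95% intervals; filled points passed an adjusted p of 0.05. Ramp3 and Gpr171 are right of 0 in CM, and both and Gpr132 left of 0 with the combined antagonists, while the EP4 antagonist alone shows no filled point.

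The receptors that PGE2 itself uses were measured with few counts at 4 h. Ptger2 (EP2) averaged 31.2 ± 18.5 CPM with PGE2 and 22.4 ± 16.8 CPM in untreated cells at 4 h. Ptger4 (EP4) was too low to test at that time, at 6.46 ± 11.1 CPM with PGE2 and 35.8 ± 27.6 CPM in untreated cells. Ptger3 (EP3) fell with PGE2, to 25.1 ± 6.31 CPM against 75.8 ± 24.7 CPM in untreated cells (-1.47 ± 0.38, adjusted p = 0.00212), and Ptger1 (EP1) held 0 to 2 counts in a group. Of 11 tested further immune receptor genes, the adenosine receptor gene Adora2b rose with PGE2 at 4 h (1.22 ± 0.34), and the chemokine receptor genes Ccr2 (-1.49 ± 0.40) and Xcr1 (-1.14 ± 0.26) and the UDP receptor gene P2ry6 (-1.04 ± 0.32) fell, at adjusted p between 0.00130 and 0.0165, beside 8.57% of all genes called. In control over Ptgs-deficient CM Adora2b rose (1.21 ± 0.32, and 1.52 without library B of the Ptgs-deficient CM) and Ccr2, Xcr1 and P2ry6 fell, beside 3.95% of all genes called. Without library B these 3 stood at -1.36, -0.97 and -1.19, and all 4 calls were kept (adjusted p between 0.000330 and 0.0145). Without library A of the Ptgs-deficient CM none of these 4 calls held (adjusted p = 0.121 for Adora2b, 0.204 for Ccr2, 0.132 for Xcr1 and 0.131 for P2ry6), and for Ccr2, Xcr1 and P2ry6 leaving out single other libraries ended them too. With PGE2 the Adora2b call was lost without PGE2 library A (0.0791) or untreated library B (0.0525) or D (0.0728), and that of P2ry6 without untreated library B (0.0567) or PGE2 library C (0.124). Of 22 tested genes of G proteins, adenylyl cyclases, kinases and arrestins, Gna13, Gnb4, Prkar1a and Arrb1 rose with PGE2 at 4 h (Gnb4 not without PGE2 library B, adjusted p = 0.0531), where 8.57% of all genes were called, with a median log2 fold change of 0.15 beside -0.01 over all genes. None was called lower with TMM and all libraries, where Gnas, which encodes the alpha subunit of Gs, stood at -0.41 (adjusted p = 0.0696). Gnas was called lower with library totals (-0.54, adjusted p = 0.00580) and without PGE2 library B (-0.49, adjusted p = 0.0498).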

How the data were processed

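The unit is counts of unique molecular identifiers per gene, which the authors deposited as 1 table for 52 libraries, made with the Drop-seq pipeline on GRCm38 per the labels' protocols. The submitters' processing notes name DESeq2 1.14.1; no source used here gives the aligner or the use of strand. The 5 genes and the lists of related genes were chosen with earlier results of these data known. One line of text was left out, and 20 lines with damaged symbols (0.105% of counts) stayed in the totals. Libraries were grouped by their labels and totalled 42666 to 438491 counts, which sets the counting error of low genes. Replicates were compared by chi-square over genes (1.38 to 2.7 per degree of freedom over 78 pairs), so none was counted as a repeat. edgeR 4.0.16 in R 4.3.3 (TMM, filterByExpr, robust quasi-likelihood test, tested on simulated data) was fitted to the 36 libraries at 4 h (5754 genes), the 16 at 24 h (5273) and the untreated and PGE2 libraries of both times (5403). Benjamini-Hochberg adjusted p up to 0.05 over all genes of a fit was called. All 5 genes passed the filter in each fit, so the exact permutation test was not needed. The 4 tested comparisons gave 20 tests of the 5 genes. Related genes were named from the lists for the partners, ligand enzymes and relatives of the 5 genes, and similar genes as the 3 with the highest Pearson r over group means of log2 CPM (prior count 2). Alternatives were library totals, no filter, DESeq2 1.42.0, fewer groups or libraries and a replicate block. Genes of the receptor lists that are not reported here were left out of the list counts.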

Additional observations from a re-analysis of the deposited data

Results flagged for a closer look

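In 65 sets of 4 libraries, 1 for each gene and group, 4 held a library whose gap to the nearest other, as a share of the range, exceeded Dixon's 95% limit, where chance gives about 5% of sets. Ramp3 stood at 206 CPM in library B of the Ptgs-deficient CM, against 13.2 to 24.0 CPM in the other 3, a gap of 0.944 of the range. Gpr171 stood at 425 CPM in the same library, against 159 to 201 CPM (0.843). Ramp3 with PGE2 and poly I:C was 2494 CPM in library A, against 2106 to 2150 CPM (0.887). Gpr183 in that group was 51.5 CPM in library B, against 82.8 to 87.3 CPM (0.876).

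S1pr2 was higher in every library with PGE2 and poly I:C than in any with poly I:C alone, and lower in every library with PGE2 alone than in any untreated one at 24 h. These effects of PGE2 differed by 2.23 on the log2 scale, a difference that was not tested here because the gene was picked on these libraries. The highest library with PGE2 alone had 61.9 CPM and the lowest untreated one 64.7 CPM, and the poly I:C group held 11 counts. The share of all genes without overlap at 24 h was not counted.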

How the results depend on the processing

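Over the tested comparisons, 317 of 319 alternatives for the 5 genes kept the direction and the side of the threshold or stayed uncalled. Ramp3 in control over Ptgs-deficient CM was at 2.12 with only the groups compared in the fit (adjusted p = 0.250), and leaving out 1 library in turn gave 1.75 to 4.10. Gpr132 in that comparison ran between 0.77 and 1.61. The 1.61, without library B of the Ptgs-deficient CM, passed the threshold (adjusted p = 0.00296, against 0.0750 with all). Levels of Ramp3 and Gpr171 had set that library apart, and the cause of these changes was not tested. Counts of genes called ran, on leaving out libraries, between 141 (without Ptgs-deficient CM library A) and 306 for CM, against 227; between 205 (without EP4 antagonist library C) and 284 for the combined over the EP4 antagonist, against 315; and between 0 and 1 for the EP4 antagonist over the mean of EP1 and EP3, where EP1 antagonist library A, EP3 antagonist library B or EP4 antagonist library C each gave 1. With library totals the split of higher and lower calls was 120 and 121 for CM, against 140 and 87, 186 and 172 for the combined over the EP4 antagonist, against 118 and 197, and 388 and 282 for the combined over the mean, against 288 and 314. For poly I:C over untreated cells library totals also reversed Sphk2 (-0.071) and Prkar1a (-0.000249), moved all 5 genes by about the shift of the median, and turned Gpr171 to -0.21. For both over PGE2, Gpr183 turned to -0.05. Without poly I:C library A the Gpr183 difference of PGE2 effects was 1.41, against 0.99, and without library C that of S1pr2 was 2.66. Libraries of the same letter gave 24 correlations of their deviations between -0.0234 and 0.0660, none over 0.1, so they were not treated as paired. A replicate block gave 241, 331, 625 and 0 genes called in the 4 comparisons and changed no call of the 5 genes. Of the 24, 14 were highest for the shared letter, a hint of pairing from the data and not from the design. Depth limits Gpr183 and S1pr2 most, whose poly I:C groups held 12 and 11 counts.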
